A study of Homo sapiens with 6 samples.

Results

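The 9 genes described here encode laminin chains: the alpha chain genes LAMA1, LAMA2, LAMA3, LAMA4 and LAMA5, the beta chain genes LAMB1, LAMB2 and LAMB3, and the gamma chain gene LAMC1. They were taken by name from the 25680 gene symbols counted in each library, and all 9 passed the filter on low counts. LAMB4 and LAMC3, also of the human family, are given beside them where the make-up of the trimer is described. The cells were U87, an established human glioblastoma line of wild-type genotype grown in serum. All of them were given EPP6, a cyclic peptide carrying the fluorescent dye rhodamine, at 500 nM for 1 h, before they were lifted from the dish and sorted on that dye. The high-uptake group was the brightest 30% of cells and the low-uptake group the dimmest 30%, with 3 libraries in each, numbered 2, 3 and 4. The series concerns proteins by which cells take up cyclic peptides. No cells without peptide were analysed here, and a single line stands for the tumour type.

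Laminins are large cross-shaped glycoproteins of the extracellular matrix, each made of an alpha, a beta and a gamma chain wound together in a coiled coil. A trimer is named by the numbers of its chains, so that laminin-411 holds alpha 4, beta 1 and gamma 1. The far end of the alpha chain carries globular domains that bind integrins and dystroglycan on the cell surface, while the short arms join laminins to each other and, through nidogens, to the rest of a basement membrane. In the brain, laminins belong mainly to the basement membranes of blood vessels and of the pial surface, and glioma cells are known to make laminins of their own.

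Of the 9 chains, 4 rose in high uptake: LAMA4 by 2.17-fold, LAMA2 by 1.80-fold, LAMC1 by 1.43-fold and LAMA3 by 1.39-fold. None fell, and LAMA1, LAMA5, LAMB1, LAMB2 and LAMB3 did not pass the test. Across all 14598 genes tested, 4.29% passed in either direction, 3.03% as higher and 1.26% as lower. The median log2 fold change of the 9 chains was 0.28, where that of all tested genes was -0.0038. For 6 of the 9 chains the libraries of the groups did not overlap, and the same held for 24.4% of all tested genes. Groups were compared on counts by the quasi-likelihood F-test of edgeR, with Benjamini-Hochberg adjustment over all tested genes and a threshold of 0.05; values per library are given as CPM, counts scaled to library size. The chains are compared with each other in TPM, the authors' measure scaled to gene length as well.

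Total counts ranged from 13712263 to 40742857 in the high-uptake libraries and from 20295900 to 38048334 in the low-uptake libraries. The libraries of a group differed from each other by a chi-square per degree of freedom of 2.35 to 19.6, the lowest value being that of low replicates 3 and 4. Nothing in the labels says that replicates were separate cultures, so p-values measure the spread between these samples only, which may be technical. In all, 442 genes were higher and 184 lower. That total of 626 became 282 or 379 when high replicate 2 or 4 was left out, and 276 or 232 when low replicate 3 or 4 was. A correction for GC content in each library gave 1511 genes higher and 1203 lower. The label was checked against markers of a mesenchymal glioblastoma line: all 9 stood at a mean of at least 1 TPM, led by VIM (vimentin) at 11825 TPM, and none of the 9 passed the test between groups (the largest difference among them was that of CHI3L1, with a log2 fold change of 0.99 and an edgeR adjusted p of 0.0890). Defining markers of other cells were at or near 0, with epithelial CDH1 at 0.0100 and 0.0466 CPM, endothelial CDH5 at 0.169 and 0.0966 CPM and immune PTPRC at 0.205 and 0.0152 CPM in high and low uptake, while MOG of oligodendrocytes and STMN2 of neurons had no count in any library. CD68, an immune marker that other cells also make, stood at a mean of 340.8 TPM.

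Of 6 markers of fibroblasts and pericytes, cells that also make LAMA4 and LAMA2, 5 were tested and 3 rose in high uptake: COL1A1, PDGFRB and LUM. No marker of this list fell, where 3.03% of all tested genes rose and 1.26% fell. PDGFRA, with a log2 fold change of 0.52, and RGS5, with -0.19, did not pass (edgeR adjusted p = 0.113 and 0.633). None of the 6 was at 0 in all libraries, and 5 had a mean of at least 1 TPM. Their summed level was 341.2 to 402.8 TPM in high uptake, against 154.7 to 209.3 TPM in low uptake, and most of it was COL1A1, a fibrillar collagen chain, at 818.9 ± 85.1 CPM with high uptake and 416.1 ± 74.3 CPM with low uptake. DCN, a defining marker, stood at 0.438 ± 0.120 CPM with high uptake and 0.159 ± 0.112 CPM with low uptake. The neuronal marker SNAP25 also passed, at 25.2 ± 4.18 CPM with high uptake and 14.7 ± 2.10 CPM with low uptake, while STMN2 had no count. The part of these markers in the laminin results that follow was not tested. In bulk libraries such as these, more cells of a kind and more RNA per cell cannot be told apart.

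LAMA4 encodes the short-armed alpha 4 chain, found in the laminins of vessel walls and of mesenchymal cells. It stood at 77.2, 69.8 and 65.45 CPM in high replicates 2, 3 and 4, against 28.9, 34.5 and 34.9 CPM in low replicates 2, 3 and 4. Every high-uptake library lay above every low-uptake library, and both extremes came from the libraries numbered 2. The mean was 70.8 ± 5.96 CPM with high uptake and 32.8 ± 3.35 CPM with low uptake (SD, n = 3 each), a log2 fold change of 1.12 (SE 0.104, edgeR adjusted p = 4.06e-04). By p-value LAMA4 ranked 7 among the 14598 genes tested. The smallest difference in any setting was a log2 fold change of 0.96, with both libraries numbered 2 left out. The exons of LAMA4 share 206 bases, and those of LAMA2 share 148 bases, with annotated genes on the opposite strand that were not analysed here.

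LAMA2 encodes alpha 2, the chain of muscle and peripheral nerve laminins, whose loss causes congenital muscular dystrophy. High replicates 2, 3 and 4 held 26.3, 24.8 and 21.2 CPM, against 13.4, 13.6 and 13.01 CPM in low replicates 2, 3 and 4. The low-uptake libraries were within 1 CPM of each other, and the groups did not overlap. The log2 fold change was 0.85 (SE 0.108, edgeR adjusted p = 0.00191), with means of 24.1 ± 2.63 CPM with high uptake and 13.3 ± 0.299 CPM with low uptake (SD, n = 3 each).

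LAMA3 encodes alpha 3, the chain of the epithelial anchoring laminin of skin. It had 10.7, 9.13 and 10.5 CPM in high replicates 2, 3 and 4, against 7.53, 7.41 and 7.09 CPM in low replicates 2, 3 and 4. The groups did not overlap, and the log2 fold change was 0.47 (SE 0.115, edgeR adjusted p = 0.0426). This call lay close to the threshold. It was lost when high replicate 2 or 4 was left out (edgeR adjusted p = 0.120 and 0.125), and when low replicate 2, 3 or 4 was (adjusted p = 0.0594, 0.133 and 0.175). Scaling by total count (adjusted p = 0.0591) and a correction for gene length (log2 fold change 0.35, adjusted p = 0.109) also ended it.

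LAMA5 encodes alpha 5, the most widespread alpha chain of adult basement membranes. Its counts corresponded to 170.0, 238.0 and 205.4 CPM in high replicates 2, 3 and 4, against 138.3, 176.9 and 187.8 CPM in low replicates 2, 3 and 4. The groups overlapped, and in each group the library numbered 2 was the lowest. The log2 fold change was 0.28 (SE 0.133, 95% interval -0.0065 to 0.58, edgeR adjusted p = 0.286). LAMA5 had the highest GC content of the 9 chains, at 66.4%, and it passed under the GC correction (log2 fold change 0.29, edgeR adjusted p = 0.00480), where 20% of all genes did. Its exons share 244 bases with ADRM1 and 118 bases with LAMA5-AS1 on the opposite strand in GENCODE release 29, and whether reads were counted by strand is not given in the sources used here. LAMA5-AS1 itself stood at 3.89 ± 0.830 CPM with high uptake and 3.21 ± 0.708 CPM with low uptake (SD, n = 3 each), with a log2 fold change of 0.26 that did not pass (edgeR adjusted p = 0.564).

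LAMA1 encodes alpha 1, the chain of the first embryonic basement membranes. Its 3 high-uptake values, 32.3, 35.55 and 35.56 CPM, lay above the 3 low-uptake values, 30.2, 31.2 and 29.8 CPM, without passing the test. The log2 fold change was 0.18 (SE 0.0871, 95% interval -0.012 to 0.37, edgeR adjusted p = 0.310). LAMA1 had the longest overlap of the 9 chains with genes on the opposite strand: its exons share 1641 and 113 bases with a pair of annotated genes that were not analysed here.

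None of the 3 beta chains passed the test. LAMB1, which encodes the common beta 1 chain, had 271.1, 279.8 and 265.6 CPM in high replicates 2, 3 and 4, against 242.4, 250.8 and 252.2 CPM in low replicates 2, 3 and 4. Its groups did not overlap, but the difference was small, with a log2 fold change of 0.13 (SE 0.0690, 95% interval -0.020 to 0.28, edgeR adjusted p = 0.348). The upper end of that interval lies below the lower end for LAMC1, at 0.35. On the opposite strand, LAMB1 shares 70 exon bases with DLD and 221 with an annotated gene that was not analysed here.

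LAMB2 encodes beta 2, a chain of kidney, vascular and synaptic laminins. Its values were 115.1, 132.6 and 105.1 CPM in high uptake, against 85.4, 105.5 and 99.98 CPM in low uptake, and the groups overlapped by a narrow margin at 105 CPM. The log2 fold change was 0.28 (SE 0.107, 95% interval 0.043 to 0.51, edgeR adjusted p = 0.191), and like LAMA5 it passed under the GC correction (log2 fold change 0.28, adjusted p = 0.00359). LAMB3, the beta chain that joins alpha 3 in the skin, was the only member with a negative estimate. It stood at 35.0, 42.2 and 35.1 CPM in high uptake, against 35.4, 40.2 and 41.6 CPM in low uptake (log2 fold change -0.064, SE 0.105, 95% interval -0.29 to 0.16, edgeR adjusted p = 0.810).

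LAMC1 encodes gamma 1, the gamma chain of nearly all laminins. High replicates 2, 3 and 4 held 334.1, 340.4 and 340.6 CPM, against 217.3, 247.9 and 244.9 CPM in low replicates 2, 3 and 4. The high-uptake libraries lay close together and far above the low-uptake libraries. The means were 338.4 ± 3.69 CPM and 236.7 ± 16.9 CPM in high and low uptake (SD, n = 3 each), with a log2 fold change of 0.52 (SE 0.0759, edgeR adjusted p = 0.00395). The calls of LAMA4, LAMA2 and LAMC1 held in each of the 19 other settings tried, with adjusted p of at most 0.00226, 0.0120 and 0.0221.

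**Figure D1:**
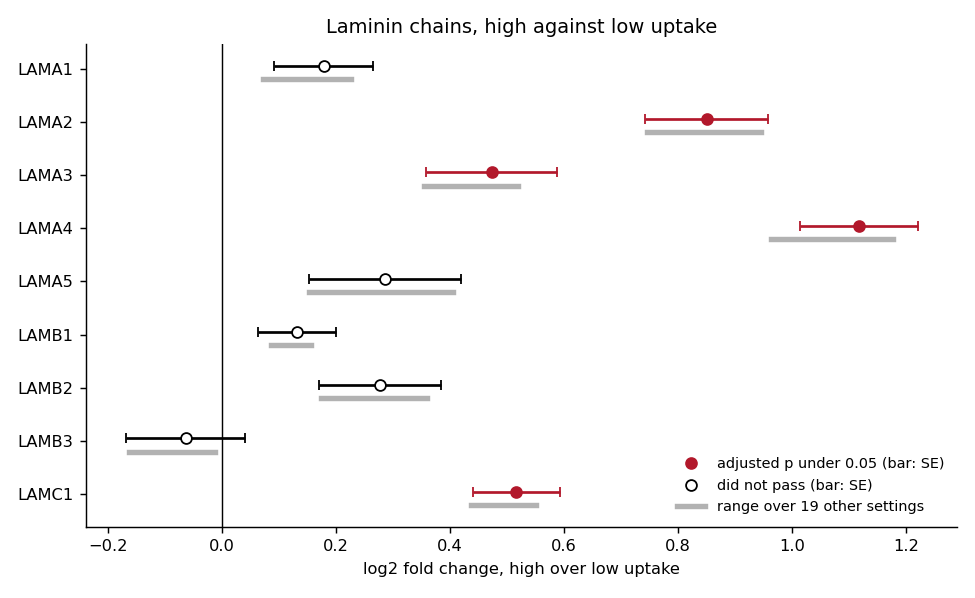
Log2 fold changes of high over low uptake (horizontal axis) for the 9 laminin chains, with SE bars, red where edgeR's adjusted p was under 0.05, and the range over 19 other settings as a grey bar below each. LAMA4 at 1.12 and LAMA2 at 0.85 lie to the right of the beta chains, which are between -0.064 and 0.28.

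In the authors' deposited list of differential genes, which gives symbols without values or directions, 6 of the 9 chains appear: LAMA2, LAMA3, LAMA4, LAMA5, LAMB2 and LAMC1. That list holds 2305 symbols, 8.98% of the 25680 counted, a base that includes genes too low to be tested here. It is labelled with a minimum count of 10 and a p of 0.05, and whether that p was adjusted is not given. The authors' deposited list includes LAMA5 and LAMB2, which did not pass the adjusted threshold here, beside the 4 chains that did. Before adjustment, the edgeR p here was 0.0545 for LAMA5 and 0.0244 for LAMB2.

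The bases just before the transcription start are shown for the 4 chains that rose, to set their promoters side by side. They are the 250 bases before a start site annotated by RefSeq on GRCh38.p14, 5′ to 3′ on the strand of the gene, while the counts were made on hg19. Capitals mark matches to the motifs searched, on both strands: the AP-1 site TGANTCA, the GC box GGGCGG, the CCAAT box CCAAT, the TATA box TATAAA and the hypoxia response core ACGTG. The windows are chr6:112254568-112254817 for LAMA4 (minus strand), chr6:128882888-128883137 for LAMA2 (plus strand), chr1:183023170-183023419 for LAMC1 (plus strand) and chr18:23872770-23873019 for LAMA3 (plus strand).
LAMA4: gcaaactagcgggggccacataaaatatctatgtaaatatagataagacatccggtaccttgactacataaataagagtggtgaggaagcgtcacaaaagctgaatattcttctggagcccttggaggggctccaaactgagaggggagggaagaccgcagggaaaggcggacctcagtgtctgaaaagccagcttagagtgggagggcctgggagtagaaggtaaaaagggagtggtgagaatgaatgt
LAMA2: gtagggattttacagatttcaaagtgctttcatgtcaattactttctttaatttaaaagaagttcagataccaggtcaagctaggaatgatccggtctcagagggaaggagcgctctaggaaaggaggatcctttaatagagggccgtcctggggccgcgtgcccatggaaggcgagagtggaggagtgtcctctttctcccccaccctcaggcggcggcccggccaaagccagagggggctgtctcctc
LAMC1: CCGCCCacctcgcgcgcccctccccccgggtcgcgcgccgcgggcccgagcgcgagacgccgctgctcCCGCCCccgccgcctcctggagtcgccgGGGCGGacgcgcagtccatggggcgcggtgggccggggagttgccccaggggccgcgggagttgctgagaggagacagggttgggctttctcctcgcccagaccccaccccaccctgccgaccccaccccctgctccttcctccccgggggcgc
LAMA3: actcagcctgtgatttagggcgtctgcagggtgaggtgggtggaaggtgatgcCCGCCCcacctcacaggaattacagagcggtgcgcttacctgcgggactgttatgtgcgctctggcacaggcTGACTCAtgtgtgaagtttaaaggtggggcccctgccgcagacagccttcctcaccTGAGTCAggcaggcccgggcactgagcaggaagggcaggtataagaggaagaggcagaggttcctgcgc

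The 4 windows had little in common. Those of LAMA4 and LAMA2, the chains with the largest differences, held none of the 5 motifs, and their GC content was 48.4% and 53.2%. The LAMC1 window was 79.6% G and C and held 3 GC boxes. That of LAMA3 held 2 AP-1 sites, which begin 125 and 69 bases before the start, and 1 GC box. Of 35116 windows of the same length in the table, 6.57% held an AP-1 site, 42.6% a GC box, 32% a CCAAT box, 10.7% a TATA box and 18.5% the hypoxia core. A match is a description of these letters and not a site of binding. LAMA4, LAMA2, LAMC1 and LAMA3 are annotated with 22, 7, 6 and 15 transcripts in GENCODE release 29, so other starts may be in use in these cells.

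Per gene length, the order of the levels over all 6 libraries ran from LAMB1 (mean 108.2 TPM) through LAMC1 (88.7 TPM), LAMB2 (44.9 TPM), LAMA5 (39.6 TPM), LAMB3 (20.65 TPM), LAMA4 (16.7 TPM), LAMA1 (8.16 TPM) and LAMA2 (4.70 TPM) to LAMA3 (1.99 TPM). Neighbours whose ranges over the libraries overlapped were LAMB1 and LAMC1, LAMB2 and LAMA5, and LAMB3 and LAMA4. The order of that last pair turned between the groups: LAMA4 averaged 23.0 TPM and LAMB3 20.5 TPM in high uptake, against 10.4 TPM for LAMA4 and 20.8 TPM for LAMB3 in low uptake. The TPM of LAMA3 divides by a gene model of 10701 bases, which holds the long form of the chain. Gene-level counts do not separate that form from the short one, and the level per length would be understated for the short form. Which form the promoter window shown for LAMA3 belongs to was not examined.

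LAMB4, a little-studied beta chain, and LAMC3, a gamma chain, were close to undetected. LAMC3 had 3, 0 and 3 counts in high replicates 2, 3 and 4, against 7, 1 and 1 counts in low replicates 2, 3 and 4. The count of 0 allows up to 0.223 CPM in that library, a limit that covers counting error only. LAMB4 had 7, 4 and 3 counts in high uptake, against 1, 2 and 1 counts in low uptake. Neither passed the filter on low counts.

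Summed alpha and gamma levels were higher in high uptake by about the same factor, and summed beta levels by a smaller one. Summed alpha transcripts stood at 79.0, 89.98 and 83.5 TPM in high replicates 2, 3 and 4, against 51.5, 60.2 and 62.4 TPM in low replicates 2, 3 and 4. The gamma sums, taken over LAMC1 and LAMC3 and nearly all LAMC1, were 104.1, 104.5 and 107.7 TPM in high uptake, against 67.3, 74.6 and 74.1 TPM in low uptake. Beta sums, over LAMB1, LAMB2, LAMB3 and LAMB4, were the highest of these classes in every library, at 181.9, 194.1 and 178.0 TPM in high uptake, against 156.2, 166.2 and 166.1 TPM in low uptake. The means of high over low uptake were in the ratio 1.45 for alpha, 1.465 for gamma and 1.13 for beta chains. No test was made on these sums, whose members were chosen with earlier results known.

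**Figure D2:**
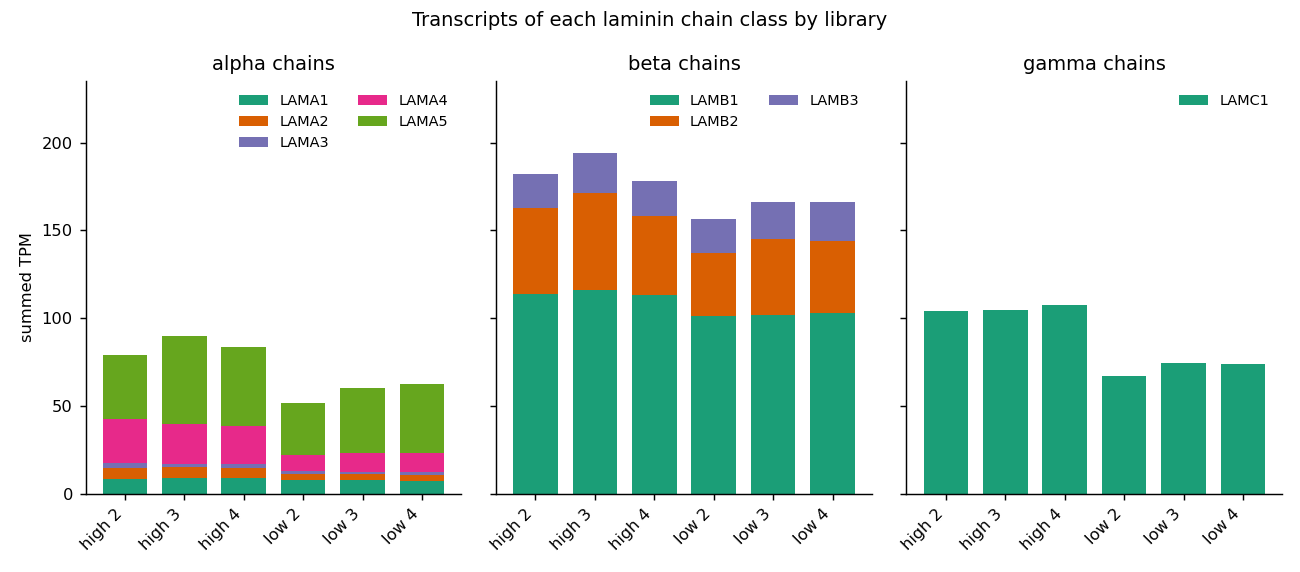
Summed TPM (vertical axis, from 0) of the alpha, beta and gamma chains among the 9 in each of the 6 libraries, stacked by chain. The stacks of all 3 classes are taller in the 3 high-uptake libraries than in any low-uptake library, and LAMB1 makes up 62.0% of the beta stack in high uptake and 62.7% in low uptake.

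The balance between the classes differed accordingly. The ratio of beta to gamma transcripts was 1.75 ± 0.103 in high uptake and 2.26 ± 0.0511 in low uptake (SD, n = 3 each), with no overlap between the groups. This ratio counts LAMB3, which made up 11.1% of beta transcripts in high uptake and 12.8% in low uptake. Its gamma side covers LAMC1 and LAMC3 only, so it describes the chains named here and not the whole classes. The ratio of alpha to gamma transcripts was 0.798 ± 0.0549 in high uptake and 0.805 ± 0.0377 in low uptake, and these ranges overlapped. LAMC1 over LAMB1, the pair shared by laminin-111, laminin-211, laminin-311, laminin-411 and laminin-511, stood at 0.913, 0.902 and 0.950 in high uptake, against 0.664, 0.732 and 0.720 in low uptake. Gamma 1 transcripts came close to beta 1 transcripts in number in high uptake, and were fewer in low uptake.

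Within the alpha class, LAMA4 took 27.5 ± 3.74% of transcripts in high uptake and 17.9 ± 0.237% in low uptake (SD, n = 3 each). LAMA5 remained the most abundant alpha chain in every library, with 52.0 ± 5.10% in high uptake and 60.4 ± 2.86% in low uptake. LAMA1 took 10.4 ± 0.547% in high uptake and 13.1 ± 1.52% in low uptake. The share of LAMA2 was 7.28 ± 1.02% in high uptake and 5.74 ± 0.728% in low uptake, and that of LAMA3 was 2.79 ± 0.433% in high uptake and 2.87 ± 0.414% in low uptake, both with overlapping groups. Shares of a class add up to a whole and are not independent of each other. LAMA4 over LAMA5 was 0.686, 0.443 and 0.481 in high replicates 2, 3 and 4, against 0.316, 0.295 and 0.280 in low replicates 2, 3 and 4. LAMA4 had at least 941 counts in each high-uptake library and at least 713 in each low-uptake library.

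**Figure D3:**
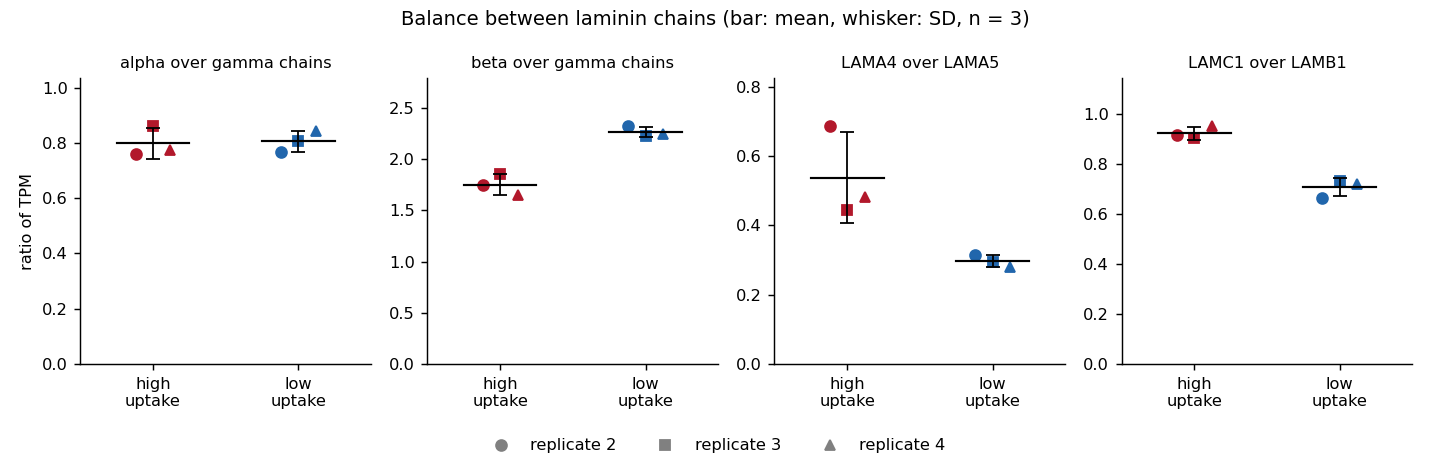
Ratios of TPM (vertical axes, from 0) between laminin chain classes and between single chains in the 3 high-uptake and 3 low-uptake libraries, with means as bars and SDs as whiskers. The groups overlap for alpha over gamma chains and lie apart for the other 3 ratios, with beta over gamma lower in high uptake at 1.75, against 2.26 in low uptake.

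The levels bear on which trimers the line could assemble, as far as transcripts show. Taking a mean of at least 1 TPM over the 6 libraries as detected, 9 of 11 chains examined were detected, and all 3 chains were detected for 10 of 13 known trimers examined. The 3 others, laminin-213, laminin-423 and laminin-523, need LAMC3. LAMB3 was detected and is part of the beta sums, but it is a chain of none of the 13 trimers examined. In each of the 10 detected trimers, all with gamma 1, the alpha chain had the lowest level of the 3 chains in both groups. That lowest level was 44.0 TPM in high uptake and 35.2 TPM in low uptake for laminin-511 and laminin-521. It was 23.0 TPM in high uptake and 10.4 TPM in low uptake for laminin-411 and laminin-421, and 6.10 TPM in high uptake and 3.30 TPM in low uptake for laminin-211 and laminin-221. For laminin-111 and laminin-121 it was 8.77 TPM in high uptake and 7.56 TPM in low uptake. For laminin-311 and laminin-321 it was 2.33 TPM in high uptake and 1.65 TPM in low uptake. With a limit of 2 TPM the count of trimers was 8, since the pair with LAMA3 dropped out. Protein, assembly and secretion were not measured.

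Laminins are bound at the cell surface by integrins, dystroglycan, syndecans and a few other receptors. Of 15 receptor genes tested, 4 rose and none fell, where 3.03% of all tested genes rose and 1.26% fell, and the median difference was 0.20 on the log2 scale. ITGA2, an integrin subunit that binds collagens and laminins, stood at 187.9 ± 18.9 CPM with high uptake and 131.1 ± 6.0 CPM with low uptake (SD, n = 3 each; log2 fold change 0.52, SE 0.0887, edgeR adjusted p = 0.00835). ITGA7, the subunit of the muscle laminin receptor, stood at 73.2 ± 5.44 CPM with high uptake and 51.7 ± 4.67 CPM with low uptake (log2 fold change 0.50, SE 0.0967, edgeR adjusted p = 0.0156). Leaving out high replicate 2, or low replicate 4, ended the ITGA7 call (edgeR adjusted p = 0.0518 and 0.0604). Among genes named after their values were seen, ITGB1, the beta subunit shared by most laminin-binding integrins, also rose, by 0.36 on the log2 scale, and the syndecan SDC2 by 0.50 (edgeR adjusted p = 0.0464 and 0.0353). In the same way, ITGA3, a main receptor subunit for laminin-511, stood at 2103 ± 222.0 CPM with high uptake and 1967 ± 203.5 CPM with low uptake (edgeR adjusted p = 0.652). ITGA6, the other main laminin receptor subunit, was at 2.42 ± 0.452 CPM with high uptake and 3.18 ± 0.133 CPM with low uptake (edgeR adjusted p = 0.289).

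Dystroglycan binds laminins through a sugar chain on its alpha subunit, which LARGE extends on a primer made by the enzyme listed under the older symbol B3GNT1. DAG1, the gene of dystroglycan, stood at 104.0 ± 6.67 CPM with high uptake and 90.5 ± 3.02 CPM with low uptake, a difference that did not pass (log2 fold change 0.20, edgeR adjusted p = 0.216). Of 13 genes of this sugar chain, 12 were tested, 2 rose and none fell, against 3.03% of all tested genes higher and 1.26% lower, and the median difference was 0.011 on the log2 scale. B3GNT1 and LARGE, which act one after the other, were the ones that rose. B3GNT1 had 48.3, 47.6 and 42.1 CPM in high uptake, against 30.4, 33.7 and 36.3 CPM in low uptake (log2 fold change 0.46, SE 0.0987, edgeR adjusted p = 0.0252). LARGE had 41.2, 41.8 and 38.2 CPM in high uptake, against 27.8, 32.1 and 30.7 CPM in low uptake (log2 fold change 0.42, SE 0.0919, edgeR adjusted p = 0.0270). The groups did not overlap for either gene. The B3GNT1 call was lost when high replicate 2 or any low-uptake library was left out (edgeR adjusted p from 0.0515 to 0.0812), and that of LARGE without any single library but high replicate 3 (adjusted p from 0.0588 to 0.110).

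Among 22 genes of basement membrane partners, 16 were tested, 5 rose and none fell, beside 3.03% higher and 1.26% lower among all tested genes, and the median difference was 0.20 on the log2 scale. NID2, a nidogen that links laminins to collagen IV, stood at 69.6 ± 7.97 CPM with high uptake and 41.2 ± 2.05 CPM with low uptake (SD, n = 3 each; log2 fold change 0.76, SE 0.101, edgeR adjusted p = 0.00236). SPARC, a collagen-binding glycoprotein, stood at 684.8 ± 5.51 CPM with high uptake and 463.6 ± 47.2 CPM with low uptake (log2 fold change 0.56, SE 0.0827, edgeR adjusted p = 0.00395). HSPG2 (the proteoglycan perlecan), SMOC1 and COL4A5, a collagen IV chain, named after their values were seen, rose by 0.76, 0.57 and 0.49 on the log2 scale (edgeR adjusted p = 0.0109, 0.0114 and 0.0319). Of 6 netrins, which share the laminin short-arm fold, 3 were tested, and NTNG1 alone passed, where 4.29% of all tested genes did. It stood at 44.1 ± 2.38 CPM with high uptake and 32.8 ± 1.60 CPM with low uptake (log2 fold change 0.43, edgeR adjusted p = 0.0202). Leaving out high replicate 2 or 4, or low replicate 3 or 4, ended this call (edgeR adjusted p from 0.0571 to 0.0850). Of 14 proteases and cross-linkers of laminins and their matrix, 11 were tested, 3 rose and none fell, with the same 3.03% and 1.26% over all tested genes, and the median difference was 0.32 on the log2 scale. HTRA1, a secreted serine protease, rose by 0.61 on the log2 scale (SE 0.0905, edgeR adjusted p = 0.00412). ADAMTS1, a metalloprotease of the ADAMTS family, rose by 0.38 (SE 0.0864, edgeR adjusted p = 0.0335). MMP2, also named after its value was seen, was the third, with a log2 fold change of 0.37 (edgeR adjusted p = 0.0414). The ADAMTS1 call was lost without any single library but high replicate 3 (adjusted p from 0.0546 to 0.0882), with both libraries numbered 2 left out (adjusted p = 0.0572), and with a correction for length or GC content (adjusted p = 0.0654 and 0.139).

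**Figure D4:**
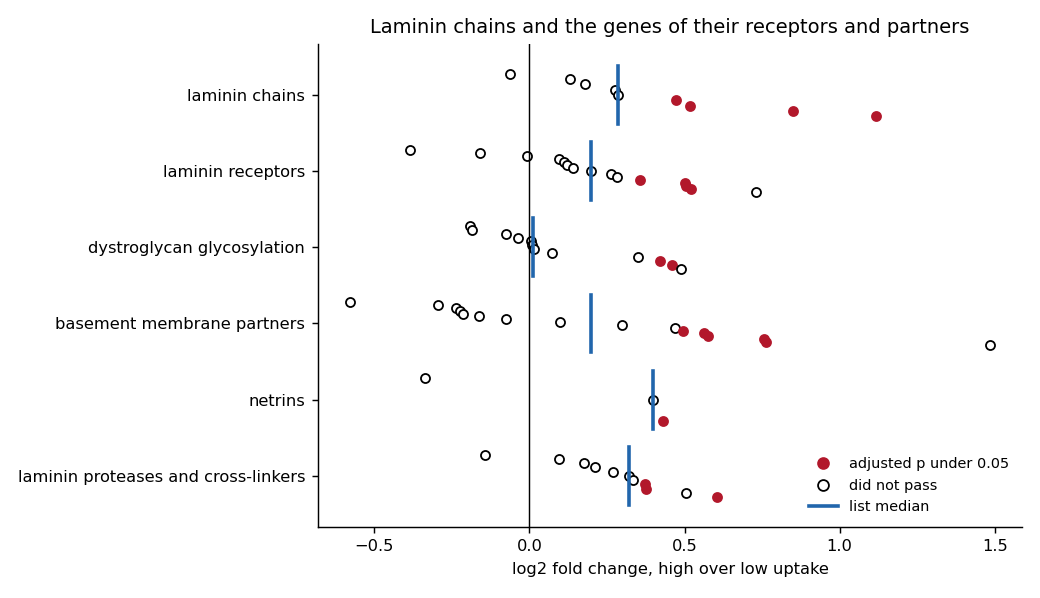
Log2 fold changes of high over low uptake (horizontal axis) for the tested members of 6 gene lists, 1 point a gene, red where edgeR's adjusted p was under 0.05, with list medians as blue lines. Members that passed lie to the right of 0 in every list, and the median of the laminin chains, 0.28, is between that of the receptors, 0.20, and that of the proteases, 0.32.

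The profiles most like that of LAMA4, the chain with the smallest p, were sought among the genes of at least 10 CPM by Pearson correlation of log2 CPM over the 6 libraries. They were SLC44A2, a choline transporter-like protein (r = 0.999), B4GALT1, a galactosyltransferase (0.997), MLEC, a lectin of the endoplasmic reticulum (0.997), NR2F2, a nuclear receptor (0.997), and LRRC15, a membrane protein with leucine-rich repeats (0.996). With 2 groups of 3 libraries, any gene that differs between the groups with little spread gives a high value, and these are descriptions. Their own log2 fold changes ran from 0.29 for MLEC to 1.35 for LRRC15. MLEC lost its call in 9 of the 19 other settings and SLC44A2 in 8.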

How the data were processed

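RNA-seq counts of 6 U87 libraries were analysed, 3 of high and 3 of low uptake, with groups and replicate numbers from the sample titles. The library kit was directional, per the labels' protocols. The tools fastp, STAR and featureCounts and the genome build hg19 are listed in the submitters' processing notes. Versions, annotation and strand setting: not given in the sources used here. The deposited files hold whole-number read counts, FPKM and TPM per gene symbol, per the file headers. A further file is the authors' deposited list of differential genes, symbols only, with no score or other value. Counts were tested, TPM compared levels between chains, and FPKM served only to recover the authors' gene length.

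Genes were kept by edgeR's filterByExpr (minimum count 10, minimum total 15), which left 14598 of 25680. TMM factors scaled the libraries. Groups were compared by edgeR 4.0.16's robust quasi-likelihood F-test (R 4.3.3), two-sided, with no covariate. An SE is the log2 fold change divided by the square root of F, and 95% intervals use the moderated degrees of freedom. GC content was that of the GENCODE release 29 transcript nearest in length, for 92.8% of tested genes and all 9 chains. Near copies were sought with blastn at 90% identity: no other gene matched more than 3.24% of a chain's transcript. Promoters were found for 8 of the 9 chains. The procedure was tested on simulated counts, drawn without a replicate-number or GC effect. That test does not bear on the changes in calls under a block or GC correction. Alternatives were other scalings, filters and tests (DESeq2 1.42.0, limma 3.58.1), each library left out, both libraries numbered 2 left out, length and GC trends removed, and the replicate number as a block.

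The members and lists were chosen with earlier results of these data known. Named genes were the 9 chains, other family chains and annotated neighbours, the 2 called members of smallest p in each list, and the 5 profiles most like that of the chain of smallest p. LAMA4-AS1 and LAMC1-AS1 were not analysed here, and LAMB2P1, at 0 to 13 counts, was not tested. Not every gene of the family is reported here, and sums and counts of chains cover those named. No column of sample values was left unassigned (0).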

Additional observations from a re-analysis of the deposited data

How the results depend on the processing

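The calls of LAMA4, LAMA2 and LAMC1 kept their direction and side of the threshold in all 19 other settings, with log2 fold changes of 0.96 to 1.18, 0.75 to 0.95 and 0.44 to 0.55. Of the 9 chains, 3 or 4 passed in each setting without a replicate block or GC correction, where 1.55% to 5.99% of all genes passed. With the GC trend removed 6 passed, where 20% of all genes did, and with a replicate block 6, where 21.8% did. With block and length trend 5 passed, beside 19.2% of all genes, and with block and GC trend 8, beside 29.2%. LAMA3 lost its call in 7 settings. LAMB3 passed in none. Calls of genes named after their values were seen, and of cell markers, were not followed over the other settings. The count of genes called over the whole table, 626 as tested, ranged from 232 to 738 with single libraries left out. It was 2714 with the GC trend removed, 3176 with a replicate block (55.4% of them higher, against 70.6% as tested), 2798 with block and length trend, and 3960 with block and GC trend. The cause of these differences was not tested.

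The replicate numbers were checked for pairing. Deviations from the group means correlated at 0.452, 0.305 and 0.0873 for equal numbers 2, 3 and 4, and at -0.395 to 0.216 for unequal numbers. Low replicate 4 correlated more with high replicate 3 (0.216) than with high replicate 4. With 3 libraries a group, centred on their mean, these values depend on each other, so the check does not decide whether the numbers are pairs. The fit without a block was kept as the main one. LAMA5 and LAMB2 passed under the block (edgeR adjusted p = 3.96e-04 and 0.00148), where 21.8% of all genes did. These calls are given as an alternative only. The number of detected chains was 8 of 11 and of trimers 8 of 13 when CPM divided by gene length replaced TPM. The 5 chains that did not pass are not shown to be equal between groups.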
